A study of Mus musculus with 12 samples.

Results

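The mitochondrial genome of the mouse kidney was followed through its transcripts, taken as the 37 rows of the count table that lie on chromosome MT, of 56722 rows in all. They comprise 13 protein genes, 2 rRNA genes and 22 tRNA genes, and all 37 had enough counts to be tested. All animals were Pod-TRECK mice, in which diphtheria toxin kills podocytes, the epithelial cells of the glomerular filter, because these cells carry a receptor for the toxin. Controls received no treatment, and toxin-treated mice received 100 ng of diphtheria toxin into the peritoneum 5, 14 or 21 days before the kidneys were taken. There were 4 groups of 3 biological replicates, each giving 1 library of poly(A)-selected RNA from whole kidney. The labels give no strain background and no age, the promoter behind the receptor is not given in the sources used here, and no toxin-treated mice without the receptor and no vehicle group were analysed here.

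Library totals ran from 31023852 to 46420299 counts. Markers of proximal tubule, loop of Henle, distal tubule, collecting duct and podocyte were all detected in every group. Day 21 replicate 2 stood apart from its group. Its proximal tubule markers summed to 25152 CPM, the count scaled to a fixed library total, against 3881 and 2998 CPM in the other day 21 libraries, and the counts of genes called at day 21 and the main day 21 differences are given with and without it. In whole tissue, fewer cells of a type and less RNA per cell cannot be told apart.

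The mitochondrial genome is a small circle that is read on both strands into long transcripts, and these are cut at the tRNAs that lie between the other genes. Its protein genes all encode core subunits of the respiratory chain and ATP synthase: mt-Nd1 to mt-Nd6 and mt-Nd4l for complex I, mt-Cytb for complex III, mt-Co1 to mt-Co3 for complex IV, and mt-Atp6 and mt-Atp8 for ATP synthase. The rRNAs and tRNAs serve the ribosome inside the organelle, while every enzyme of its transcription and RNA turnover comes from nuclear genes. Kidney tubules, above all the proximal tubule, are packed with mitochondria that power salt and solute uptake.

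Some of these genes overlap, which decides how their counts can be read. The gene mt-Nd4l lies at chrMT:9877-10173 and its last 7 bases are the first 7 of mt-Nd4. The gene mt-Atp8 lies at chrMT:7766-7969, and its last 43 bases are the first 43 of mt-Atp6. Both lie on the plus strand of the table, whose genes are called heavy-strand genes by convention, and start, end and strand were the same in GENCODE M21 for 37 of 37 genes. In the sequences below, from GENCODE M21 transcripts matched by gene identifier, capitals mark the shared bases.
mt-Nd4l: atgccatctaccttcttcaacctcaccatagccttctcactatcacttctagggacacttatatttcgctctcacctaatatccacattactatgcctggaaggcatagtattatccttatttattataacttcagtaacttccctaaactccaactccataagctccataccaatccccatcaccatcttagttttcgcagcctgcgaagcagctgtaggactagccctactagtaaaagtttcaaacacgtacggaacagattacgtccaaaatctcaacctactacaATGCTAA
mt-Atp8: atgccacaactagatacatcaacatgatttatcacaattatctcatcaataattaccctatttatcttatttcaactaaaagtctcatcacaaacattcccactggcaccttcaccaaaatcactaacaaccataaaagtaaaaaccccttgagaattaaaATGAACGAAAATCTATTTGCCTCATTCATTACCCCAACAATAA

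Of the 37 deposited gene models, 11 were longer than the span between their own start and end. The model of mt-Nd4l was 1668 bases long over a span of 297, which reaches position 11544, the end of mt-Nd4. The model of mt-Atp6 was 1464 bases over a span of 681, which reaches 9390, the end of mt-Co3. The model of mt-Nd5 was 2329 bases over a span of 1824, which reaches 14070, the far end of mt-Nd6 on the other strand. That of mt-Atp8 was 2821 bases over a span of 204, and its end by length met no gene end. Outside chromosome MT, 1140 of 56685 genes also had models longer than their span.

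The counts followed the long models. In control replicate 1, mt-Atp8 had 1673116 counts, and the sum of mt-Nd3, mt-Nd4l and the difference between mt-Atp6 and mt-Co3 was 1658342. Over the 12 libraries the mt-Atp8 count exceeded this sum by 0.779 to 2.68%, with a median of 1.27%. The row of mt-Ts2, a serine tRNA, exceeded that of mt-Tl2, a leucine tRNA that its model covers, by 0 to 2.94%. The mt-Atp8 value is thus close to a sum over neighbours and cannot be read as the level of its own message, and members that share reads are not independent measurements. As a partial correction, chosen after seeing the data, mt-Atp8 was left out, and mt-Co3, mt-Nd4, mt-Tl2 and mt-Tq were subtracted from mt-Atp6, mt-Nd4l, mt-Ts2 and mt-Ti. The long models of mt-Nd1, mt-Nd2, mt-Co1 and mt-Nd5, which reach over mt-Ti, mt-Tw, mt-Ts1 and mt-Nd6, were left as deposited, so some reads can still count towards more than 1 row.

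A stretch of chromosome 1 holds copies of the same genes, on the minus strand of chr1:24650616-24655278. By sequence, Gm28437 matched mt-Co3 over 783 of 783 aligned bases, Gm28661 matched mt-Co2 over 681 of 681, Gm10925 matched mt-Atp6 over 678 of 678, Gm28439 matched mt-Nd4 over 876 of 876, and Gm28438 matched mt-Nd3 over 342 of 342. Gm10222, added by its position after seeing the data, matched mt-Nd4l over 294 of 294. The counts of Gm10925 differed from those of mt-Atp6 less mt-Co3 by -0.579 to 1.401% over the 12 libraries. Counts of Gm28437 differed from mt-Co3 by -3.93 to 2.30%, and those of Gm28661 from mt-Co2 by -6.63 to -0.358%. Reads of these copies and of the mitochondrial genes cannot be told apart. The 6 copies other than Gm10222 held 7.72 ± 0.214% of control counts, 6.38 ± 0.396% at day 5, 3.32 ± 0.107% at day 14 and 5.35 ± 1.59% at day 21 (SD, n = 3 each).

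The copy of mt-Co1, Gm29216, was the exception in sequence, with 1 mismatch over the 483 bases aligned. The stretch around it is shown for mt-Co1, at chrMT:6390-6449, and for the copy, at chr1:24655210-24655269 on the minus strand, with the differing base in capitals.
mt-Co1: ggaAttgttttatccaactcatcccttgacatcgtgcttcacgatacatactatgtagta
Gm29216: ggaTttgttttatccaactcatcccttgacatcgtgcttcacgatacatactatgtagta

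**Figure D1:**
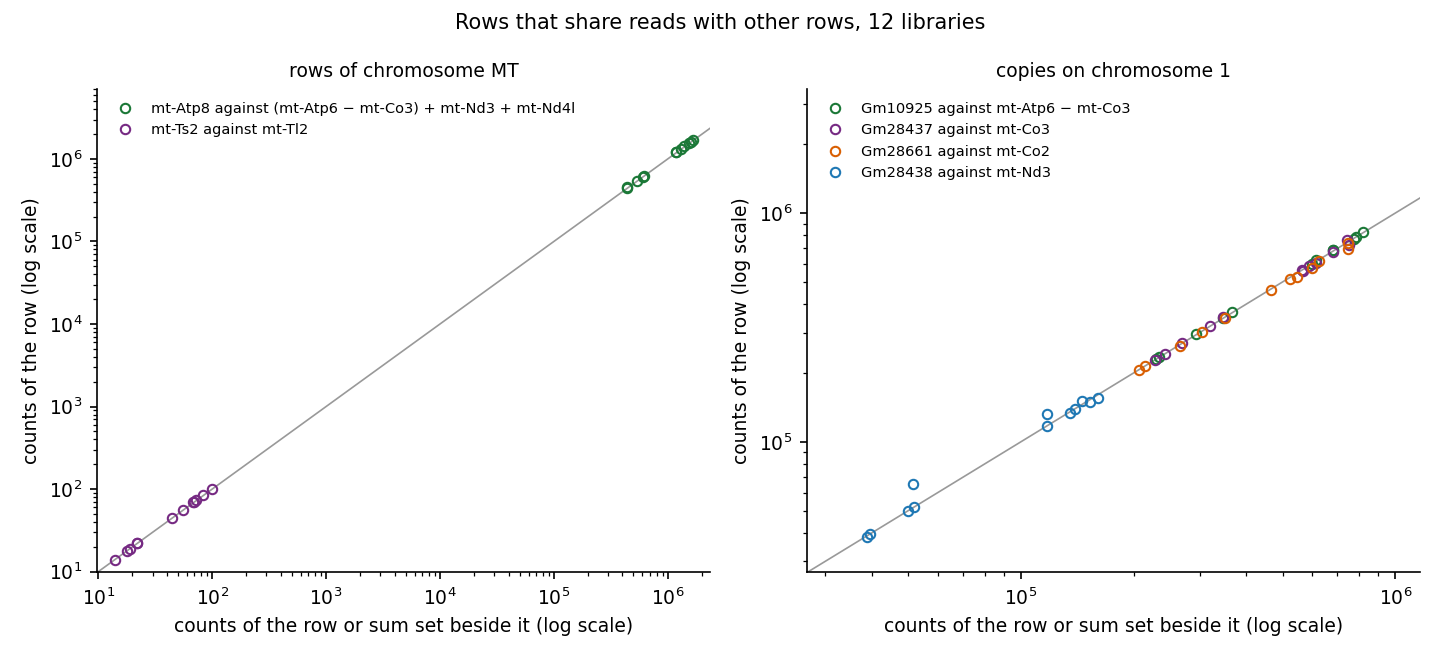
Counts of rows that share reads with other rows, on log axes, 1 point per library for 12 libraries; the line marks equal counts. On the left mt-Atp8 lies within 2.68% of the sum of its neighbours, and on the right the chromosome 1 copies lie close to their mitochondrial source, apart from libraries in which Gm28438 exceeds mt-Nd3 by up to 27.2%.

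Mitochondrial transcripts took up less of the library after toxin, and the 3 classes did not share 1 course. Protein genes held 23.3, 22.1 and 21.9% of counts in control libraries, 19.4, 18.4 and 17.7% at day 5, 8.75, 8.98 and 9.19% at day 14, and 11.2, 20.3 and 11.4% at day 21. The day 5 and day 14 libraries lay below all controls without overlap, and at day 21 replicate 2 lay far above its companions. The rRNA genes held 0.392, 0.654 and 0.475% in controls, 0.563, 0.513 and 0.425% at day 5, 0.216, 0.217 and 0.248% at day 14, and 0.510, 0.799 and 0.346% at day 21. For rRNA the control, day 5 and day 21 groups overlapped, and the day 14 libraries were lowest. The tRNA genes held 0.0409, 0.0499 and 0.0469% in controls, 0.0578, 0.0498 and 0.0462% at day 5, 0.0172, 0.0167 and 0.0165% at day 14, and 0.0220, 0.0584 and 0.0263% at day 21.

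With these overlaps subtracted the total share was lower and the order of the groups was kept. All members together then held 17.1 ± 0.594% of control counts, 14.0 ± 0.648% at day 5, 6.77 ± 0.162% at day 14 and 11.1 ± 4.10% at day 21 (SD, n = 3 each), against 22.9 ± 0.684, 19.1 ± 0.892, 9.22 ± 0.238 and 14.9 ± 5.42% in the same order as deposited. Of the deposited mitochondrial counts, protein genes made up 96.1 ± 0.693% at day 21 and 97.6 ± 0.638% in controls.

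**Figure D2:**
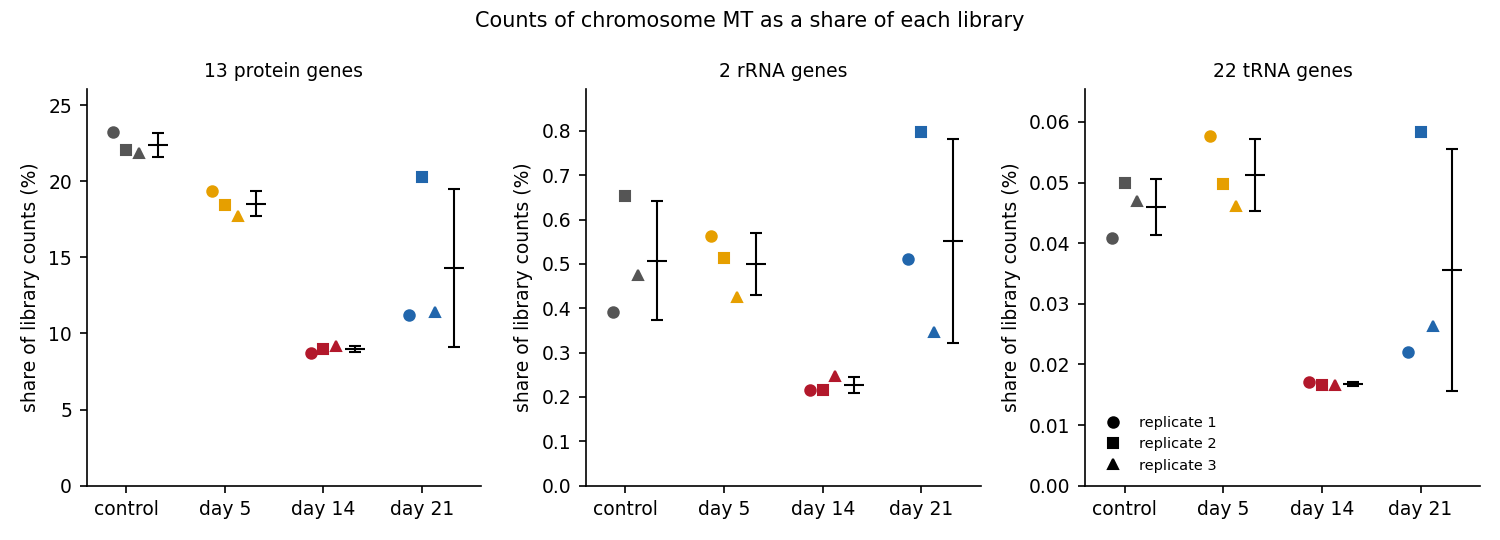
Share of library counts (%) on protein, rRNA and tRNA genes of chromosome MT in control kidneys and 5, 14 and 21 days after toxin; points are libraries, with the symbol giving the replicate number, and bars are mean ± SD, n = 3. All day 14 libraries lie below all controls in each panel, and day 21 replicate 2 lies above the other day 21 libraries.

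Levels between genes were compared as CPM per kb of model length. The genes mt-Co1, mt-Co2, mt-Co3, mt-Atp6, mt-Nd3, mt-Nd4 and mt-Nd4l have chromosome 1 copies over part or all of their length. Treatment of reads with several matches is not given, so their levels against genes without such a copy are uncertain. In control kidneys mt-Atp6 stood at 24837 ± 527, mt-Co2 at 24747 ± 1827, mt-Co1 at 23604 ± 887 and mt-Co3 at 22159 ± 563 CPM per kb (SD, n = 3). The ranges of the first 3 of these overlapped, and the range of mt-Co3 overlapped that of mt-Co2. With the mt-Co3 counts taken out, the own stretch of mt-Atp6 stood at 27925 ± 834 CPM per kb. Below them came mt-Cytb at 12167 ± 633, mt-Nd4 at 10664 ± 321, mt-Nd3 at 10508 ± 355 and mt-Nd1 at 9835 ± 848 CPM per kb, of which mt-Nd4, mt-Nd3 and mt-Nd1 overlapped. Further down stood mt-Nd2 at 6910 ± 391, mt-Nd5 at 4388 ± 293 and the own stretch of mt-Nd4l at 3250 ± 286 CPM per kb. The models of mt-Nd1, mt-Nd2, mt-Co1 and mt-Nd5 are longer than their spans, which can lower values per kb. This held most for mt-Nd5, with 2329 bases over a span of 1824. The lowest protein gene was mt-Nd6, at 208 ± 16.1 CPM per kb, the only protein gene on the light strand. Its strand partners cannot be separated from it, because the strand setting of the counting is not given in the sources used here.

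The rRNAs stood below most messages in these poly(A)-selected libraries. Total rRNA and tRNA were not measured, so all rRNA and tRNA values here are for RNA captured by that selection. Control kidneys had 2183 ± 764 CPM per kb for mt-Rnr2, the large-subunit rRNA, and 1690 ± 172 for mt-Rnr1, the small-subunit rRNA. The tRNAs spanned a wide range, from 5.30 ± 3.75 for mt-Ty to 2068 ± 207 CPM per kb for mt-Tl1. The highest were mt-Tl1 (leucine), mt-Ti (isoleucine, 751 ± 132 CPM per kb) and mt-Tw (tryptophan, 576 ± 11.9 CPM per kb). With the mt-Tq counts and length taken out, the own stretch of mt-Ti stood at 1509 ± 274 CPM per kb. Each of these highest tRNAs abuts or overlaps a protein gene at 1 end, so reads reaching in from a neighbour count towards it. Their genes lie at chrMT:2676-2750, chrMT:3706-3774 and chrMT:4950-5016 on the plus strand and are shown because the results on tRNAs turn on them, with the anticodon of mt-Ti and mt-Tw in capitals.
mt-Tl1: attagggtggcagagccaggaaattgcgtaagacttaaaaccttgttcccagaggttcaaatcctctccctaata
mt-Ti: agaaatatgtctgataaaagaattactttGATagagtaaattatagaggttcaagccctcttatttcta
mt-Tw: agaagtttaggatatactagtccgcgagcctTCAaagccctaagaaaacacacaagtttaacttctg

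At day 14 every mitochondrial gene fell. Relative to library sizes scaled by TMM, a factor that centres the bulk of genes, 37 of 37 members were lower than in controls at an adjusted p under 0.05 (edgeR quasi-likelihood test, Benjamini-Hochberg over all genes), while 28.8% of the 19821 genes tested were called lower. The median log2 fold change was -2.06 for protein genes, -1.86 for rRNA and -2.23 for tRNA genes, against 0.08 over all genes tested. The count stayed at 37 whichever 1 library was left out, where 24.4 to 30.9% of all genes were called lower. The size depends on the scale: TMM factors averaged 1.31 at day 14 and 0.793 in controls. With library totals alone the median of all genes moved to 0.80 and that of the protein genes to -1.33, and mt-Nd6 and mt-Te no longer passed the test (adjusted p = 0.0503 and 0.0594).

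All 7 complex I messages fell at day 14, by 1.29 to 2.42 on the log2 scale. The core subunit gene mt-Nd2 had 2229, 2310 and 2517 CPM at day 14, against 8118, 7347 and 7399 CPM in controls, a log2 fold change of -2.42 ± 0.47 (SE, adjusted p = 0.00124, edgeR). No day 14 library came near a control library. For mt-Nd4 the log2 fold change was -2.35 ± 0.41 and for mt-Nd3 -2.27 ± 0.42. It was -2.06 ± 0.32 for mt-Nd5 and -1.99 ± 0.31 for mt-Nd1. The mt-Nd4l row had -2.31 ± 0.40, but its counts include those of mt-Nd4. With the mt-Nd4 counts subtracted, mt-Nd4l had -1.85 ± 0.31 (adjusted p = 0.000546, edgeR). Libraries of day 14 had 4391, 4523 and 4501 CPM of mt-Nd1, against 11807, 10278 and 10136 CPM in controls, and 1262, 1273 and 1244 CPM of mt-Nd3, against 3799, 3574 and 3597 CPM. For mt-Nd5 they had 3989, 3938 and 4224 CPM, against 10996, 9713 and 9949 CPM in controls, and for mt-Nd4 4673, 4782 and 4886 CPM, against 15123, 14723 and 14239 CPM. No library of 1 group reached into the other for any of these genes. The light-strand gene mt-Nd6 had 60.2, 78.3 and 80.6 CPM at day 14, against 112, 113 and 98.2 CPM in controls. Its fall was the smallest of the 13 protein genes, at -1.29 ± 0.33 (adjusted p = 0.00595, edgeR).

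Cytochrome b of complex III, mt-Cytb, had 4444, 4626 and 4772 CPM at day 14, against 14755, 13510 and 13492 CPM in controls, a log2 fold change of -2.32 ± 0.39 (adjusted p = 0.000518, edgeR). In complex IV, mt-Co1, the catalytic subunit, had 19808, 19910 and 20117 CPM at day 14, against 39594, 36796 and 37689 CPM in controls. Its log2 fold change of -1.66 ± 0.32 (adjusted p = 0.00112, edgeR) was the second smallest, and mt-Co2 and mt-Co3 had -2.05 ± 0.30 and -1.98 ± 0.32. The level of mt-Co2, which takes up electrons from cytochrome c, was 6732, 6671 and 6868 CPM at day 14, against 17735, 17559 and 15488 CPM in controls. That of mt-Co3, a structural core subunit, was 6824, 7340 and 7742 CPM at day 14, against 17790, 17417 and 16910 CPM in controls. The ATP synthase gene mt-Atp6, whose product forms part of the proton channel, had 14270, 14865 and 15100 CPM at day 14, against 37234, 35770 and 36080 CPM in controls, counts that include mt-Co3. It had a log2 fold change of -2.03 ± 0.34. The rRNA mt-Rnr1 had a log2 fold change of -1.74 ± 0.33 and mt-Rnr2 of -1.97 ± 0.41 (adjusted p = 0.00109 and 0.00179, edgeR). Day 14 libraries had 1426, 1397 and 1587 CPM of mt-Rnr2, against 2492, 4810 and 3061 CPM in controls, and the controls differed from each other more than the day 14 libraries did.

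**Figure D3:**
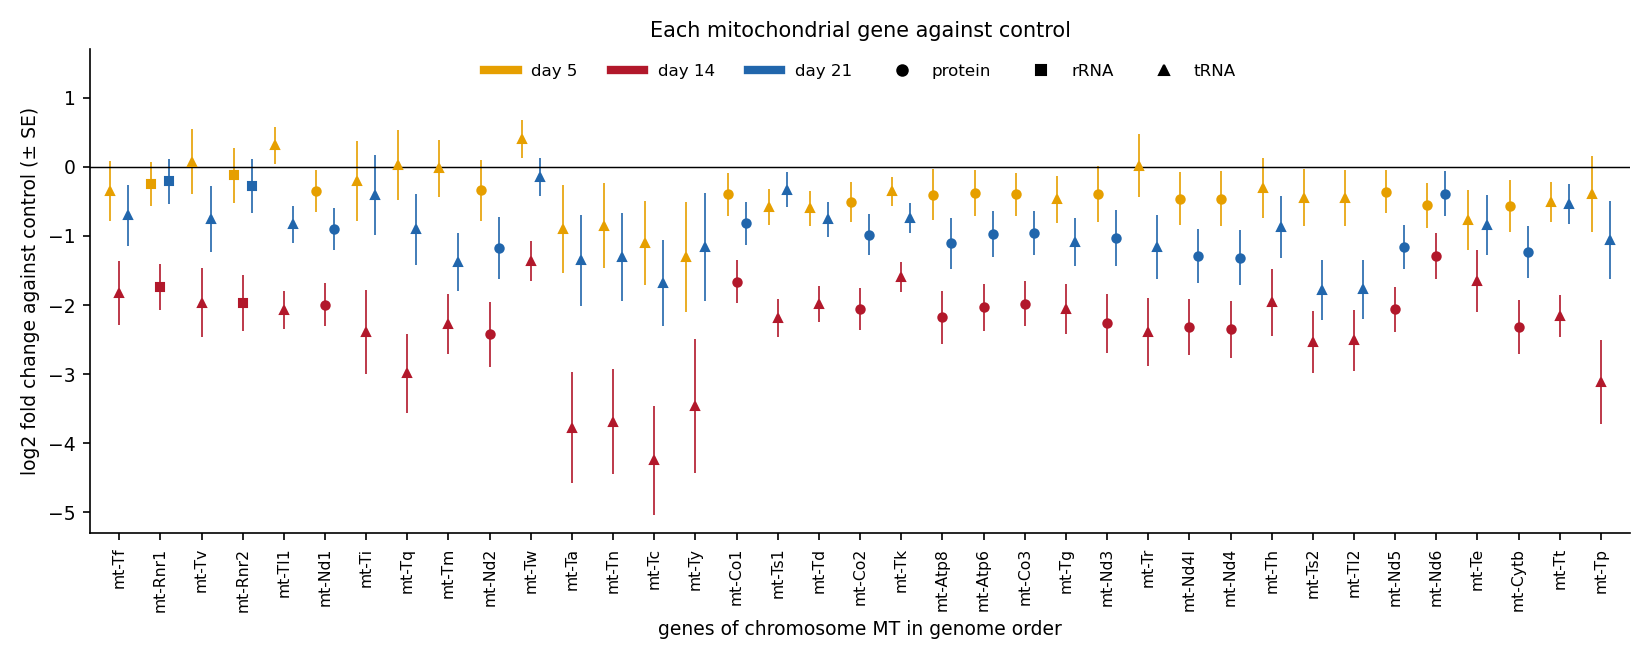
Log2 fold change against control of the 37 genes of chromosome MT in genome order, at day 5, day 14 and day 21, with the standard error of the fit; symbols give the class and colours the day (n = 3 libraries per group). At day 14 all genes lie below 0, from -1.29 for mt-Nd6 to -4.24 for mt-Tc; at day 21 mt-Rnr1, mt-Rnr2 and mt-Tw lie nearest to 0.

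At day 5 the protein genes lay lower than in controls but none passed the test in the fit of all 12 libraries. None of the 37 members was called, against 14.9% of all genes in either direction. At an unadjusted p under 0.05 edgeR gave 2 members. DESeq2 and limma-voom also called 0, where they called 17.3 and 14.1% of all genes in either direction. The log2 fold changes of the 13 protein genes ran from -0.57 for mt-Cytb to -0.34 for mt-Nd2. Day 5 libraries had 10916, 10252 and 9962 CPM of mt-Cytb, against 14755, 13510 and 13492 CPM in controls, with no overlap. Without day 21 replicate 2, 17 members were called lower, all 13 protein genes among them, where 14.9% of all genes were called lower. The tryptophan tRNA mt-Tw was then called higher, at a log2 fold change of 0.40, where 17.4% of all genes were.

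At day 21 the call depended on replicate 2. With it, 16 members were lower than in controls, against 18.5% of all genes: 9 protein genes, no rRNA and 7 tRNAs. The protein genes called were mt-Nd1, mt-Nd4l, mt-Nd4, mt-Nd5, mt-Cytb, mt-Co2, mt-Co3, mt-Atp6 and mt-Atp8, and mt-Nd2, mt-Nd3, mt-Nd6 and mt-Co1 did not pass. The gene mt-Nd4 had 5709, 12217 and 4772 CPM at day 21, against 15123, 14723 and 14239 CPM in controls, a log2 fold change of -1.31 ± 0.40 (adjusted p = 0.0239, edgeR). Replicate 2 alone came close to the controls. The same library exceeded all controls for mt-Nd6, with 69.8, 157 and 95.2 CPM at day 21, against 112, 113 and 98.2 CPM in controls, and for mt-Nd3, with 1494, 3848 and 1505 CPM, against 3799, 3574 and 3597 CPM. For mt-Nd2 the day 21 libraries had 2542, 7552 and 2636 CPM, against 8118, 7347 and 7399 CPM in controls. Without it, 36 of 37 members were lower (mt-Ty was the exception, at an adjusted p of 0.0703, edgeR), against 28.4% of all genes, and the protein median moved to -1.72 from -1.03. Leaving out control replicate 1, 2 or 3 gave 7, 4 and 4 members, against 13, 12.5 and 11.2% of all genes called lower in those fits. Leaving out day 21 replicate 1 or 3 gave 2 members each, against 10.1 and 8.92% of all genes.

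Between days, 34 members were lower at day 14 than at day 5, against 26.1% of all genes, with a protein median of -1.70 on the log2 scale. The rRNAs were among the members higher at day 21 than at day 14. In all, 13 members rose, where 7.03% of all genes were called higher: mt-Nd1, mt-Co2, both rRNAs and 9 tRNAs. The small rRNA mt-Rnr1 had 1791, 2525 and 1152 CPM at day 21, against 734, 769 and 894 CPM at day 14, a log2 fold change of 1.53 ± 0.33 (adjusted p = 0.0144, edgeR). All day 21 libraries lay above all day 14 libraries. Without day 21 replicate 2, 21 members were higher, against 12.5% of all genes, and the protein median was 0.37 in place of 1.06. With any 1 of the other libraries left out, the count ran from 2 to 30, and the share of all genes called higher from 1.41 to 12.8%.

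The mitochondrial messages did not fall in step. A second fit took the summed counts of the 13 protein genes as library size, so that each gene was tested relative to its fellow messages, and it describes shares that must balance. Nuclear genes shift as a block on this scale: at day 14 90.3% of all genes were called higher and 2.47% lower, so an adjusted p is close to the unadjusted one. There mt-Co1 was higher in day 14 kidneys, at a log2 fold change of 0.39 ± 0.09 (adjusted p = 0.000886, unadjusted p = 0.000677, edgeR). The light-strand gene mt-Nd6 was higher, at 0.75 ± 0.20 (adjusted p = 0.00245). Lower were mt-Nd2 at -0.38 ± 0.17, mt-Nd4 at -0.30 ± 0.13, mt-Nd4l at -0.27 ± 0.12 and mt-Cytb at -0.27 ± 0.11. Of 12 fits that each left out 1 library, mt-Co1 and mt-Nd6 were called in 12, mt-Cytb in 6, mt-Nd4 in 5 and mt-Nd2 in 3. With the overlaps subtracted, mt-Nd4l was no longer lower (log2 fold change 0.14 ± 0.22, adjusted p = 0.533).

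The share of each message shows the same shift. With the overlaps subtracted, mt-Co1 made up 31.9, 31.4 and 31.01% of the protein-gene counts in day 14 libraries, against 24.7, 24.5 and 25.3% in controls, with no overlap. Complex IV messages together made up 53.6 ± 0.0957% at day 14 and 47.2 ± 0.440% in controls (SD, n = 3 each). Complex I messages made up 27.4 ± 0.294% at day 14 and 31.3 ± 0.388% in controls, and mt-Cytb 7.27 ± 0.106% and 9.08 ± 0.118%. The own stretch of mt-Atp6 held 11.7 ± 0.339% at day 14 and 12.4 ± 0.401% in controls. These shares do not include the counts of the chromosome 1 copies, and the treatment of reads with several matches is not given. Antisense reads of its neighbours cannot be told apart from mt-Nd6, whose share was 0.0969, 0.123 and 0.124% at day 14, against 0.0701, 0.0752 and 0.0659% in controls.

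At day 5 no message passed this test. None of the 13 protein genes was called relative to the protein total, at an adjusted or an unadjusted p under 0.05, where 4.78% of all genes were called (edgeR). The mt-Cytb share was 8.20 ± 0.0814% at day 5 and 9.08 ± 0.118% in controls, without overlap, at a log2 difference of -0.15 ± 0.11 (adjusted p = 0.390). At day 21 mt-Co1 and mt-Nd6 were higher, at 0.27 ± 0.09 and 0.63 ± 0.20 (adjusted p = 0.0127 and 0.0102), where 81.4% of all genes were called higher. Lower were mt-Nd4, mt-Nd4l and mt-Cytb, at -0.36 ± 0.13, -0.33 ± 0.12 and -0.26 ± 0.11, where 2.13% of all genes were called lower. Day 21 libraries had 30.6, 26.5 and 30.2% of protein-gene counts on mt-Co1, against 24.7, 24.5 and 25.3% in controls, and replicate 2 was the library nearest to the controls. Both genes were called in all 12 fits that left out 1 library. Without replicate 2, 8 protein genes were called in place of 5, where 87.9% of all genes were called higher and 3.65% lower. The log2 differences were then 0.35 ± 0.06 for mt-Co1, 0.60 ± 0.13 for mt-Nd6 and 0.19 ± 0.08 for mt-Nd1, all higher. Lower were mt-Nd2 at -0.57 ± 0.08 (adjusted p = 8.85e-06, edgeR), mt-Nd4 at -0.50 ± 0.09, mt-Nd4l at -0.45 ± 0.08, mt-Cytb at -0.35 ± 0.07 and mt-Nd3 at -0.30 ± 0.08. With the overlaps subtracted and all libraries kept, mt-Nd4l was not lower (0.06 ± 0.22). Of the lower genes, mt-Nd4 was called in 11 of the 12 fits, mt-Nd4l in 10 and mt-Cytb in 2.

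**Figure D4:**
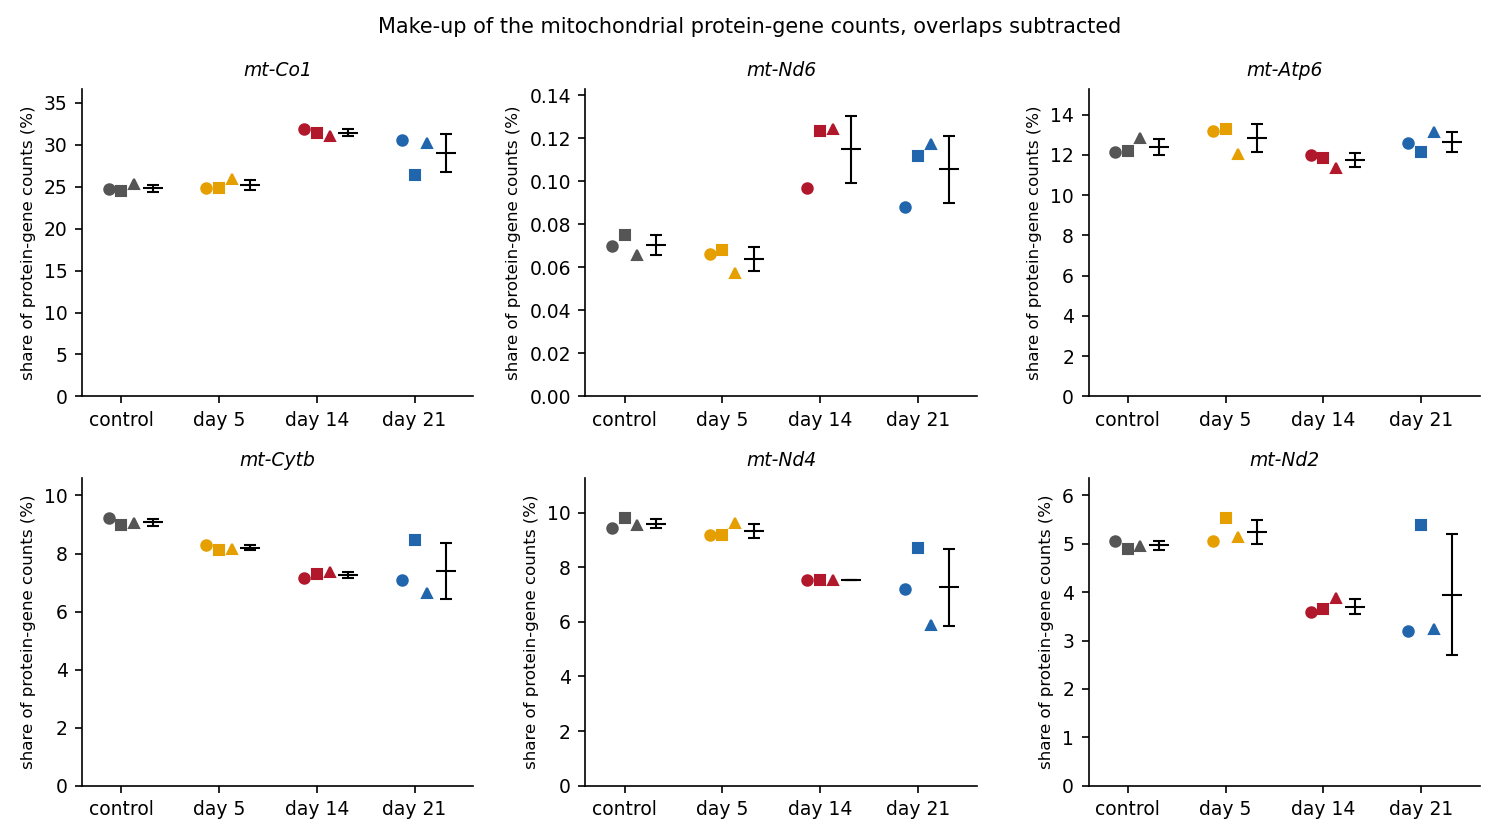
Share (%) of the mitochondrial protein-gene counts, with the overlaps of mt-Atp8, mt-Atp6 and mt-Nd4l subtracted, held by 6 genes in control kidneys and at day 5, 14 and 21; points are libraries, with the symbol for the replicate as in the plot of shares by class, and bars are mean ± SD, n = 3. The mt-Co1 share lies between 31.01 and 31.9% at day 14 and between 24.5 and 25.3% in controls, while mt-Cytb, mt-Nd4 and mt-Nd2 lie lower at day 14.

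Counts of the rRNAs in these poly(A)-selected libraries were higher relative to the messages at day 21, a shift not called at day 14. Relative to the protein total, mt-Rnr1 differed from controls by 0.30 ± 0.18 and mt-Rnr2 by 0.08 ± 0.22 on the log2 scale at day 14, and neither passed the test (adjusted p = 0.131 and 0.735, edgeR). At day 21 mt-Rnr1 was higher by 0.83 ± 0.18 and mt-Rnr2 by 0.72 ± 0.22 (adjusted p = 0.00157 and 0.00885, unadjusted p = 0.000479 and 0.00602, edgeR). Both were called in all 12 fits that left out 1 library. On this scale 81.4% of all genes were called higher at day 21, and the median over all genes was 1.35. The rise of the rRNAs is thus relative to the messages only. Without replicate 2 mt-Rnr1 and mt-Rnr2 were higher by 0.85 ± 0.16 and 0.68 ± 0.23 (adjusted p = 0.000223 and 0.0119, edgeR), where 87.9% of all genes were called higher. The rRNA genes made up 4.34, 3.78 and 2.94% of mitochondrial counts at day 21, against 1.65, 2.87 and 2.12% in controls. All 3 day 21 libraries lay above all controls, the lowest of them close to control replicate 2. Relative to library size the day 21 rRNA levels were -0.21 ± 0.32 and -0.28 ± 0.39 from controls and did not pass the test, and with library totals alone both lay above 0. Without replicate 2 both were called lower, at -0.75 ± 0.19 and -0.92 ± 0.26 (adjusted p = 0.0048 and 0.00927, edgeR), where 28.4% of all genes were called lower.

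Among the tRNAs, mt-Tw had the smallest fall at day 14. It had 39.2, 37.7 and 38.9 CPM in controls, 62.6, 56.8 and 49.5 CPM at day 5, 25.1, 22.8 and 26.7 CPM at day 14 and 31.3, 62.8 and 43.7 CPM at day 21. The day 5 libraries lay above all controls and the day 14 libraries below them, and the day 21 group overlapped the controls. Relative to the protein total it was higher at day 5 (0.81 ± 0.21, adjusted p = 0.0374), day 14 (0.68 ± 0.21, adjusted p = 0.00612) and day 21 (0.91 ± 0.21, adjusted p = 0.00177, and 0.94 ± 0.12 without day 21 replicate 2). On that scale 90.3% of all genes were called higher at day 14 and 81.4% at day 21. The leucine tRNA mt-Tl1 had 248, 190 and 198 CPM at day 5, against 142, 172 and 151 CPM in controls, and was higher relative to the protein total (0.72 ± 0.19, adjusted p = 0.0475). These were the 2 members called at day 5 on that scale, where 4.38% of all genes were called higher. For mt-Tl1 this held in 2 of the 12 fits that left out 1 library and for mt-Tw in 3, whereas at days 14 and 21 mt-Tw was called in all 12. Isoleucine tRNA, mt-Ti, had 83.2, 119 and 107 CPM in controls, 106, 107 and 83.4 CPM at day 5, 31.3, 31.1 and 35.2 CPM at day 14 and 33.6, 197 and 54.5 CPM at day 21, where replicate 2 exceeded every control.

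The steepest day 14 falls were in rows of light-strand tRNAs with few counts. The strand setting of the counting is not given, so reads of the other strand cannot be told apart from these tRNAs. The neighbours mt-Ta (alanine), mt-Tn (asparagine), mt-Tc (cysteine) and mt-Ty (tyrosine) had log2 fold changes of -3.77 ± 0.80, -3.69 ± 0.76, -4.24 ± 0.79 and -3.46 ± 0.97. Their depth was low: mt-Tc had 2 counts in each day 14 library, against 16, 25 and 49 in controls. Day 14 counts were 4, 3 and 3 for mt-Ta, 5, 3 and 4 for mt-Tn and 2, 1 and 2 for mt-Ty. These rows passed the count filter on their counts in other groups, so the sizes of their falls are uncertain. The other light-strand tRNAs were mt-Tp (proline) at -3.11 ± 0.61, mt-Tq (glutamine) at -2.99 ± 0.57, mt-Ts1 (serine) at -2.19 ± 0.28 and mt-Te (glutamic acid) at -1.65 ± 0.45. The 14 heavy-strand tRNAs ran from -2.54 for mt-Ts2 to -1.36 for mt-Tw. The model of mt-Tp was 944 bases over a span of 67, so its counts cover more than the tRNA. Relative to the protein total, mt-Ta, mt-Tn, mt-Tc, mt-Tp and mt-Tq were lower at day 14, at -1.78 ± 0.66, -1.69 ± 0.63, -2.27 ± 0.70, -1.06 ± 0.33 and -0.95 ± 0.39 (edgeR adjusted p from 0.00649 to 0.0309). There 2.47% of all genes were called lower. Leaving out 1 library at a time, mt-Tc and mt-Tp were called in all 12 fits, mt-Tn in 10, mt-Ta in 9 and mt-Tq in 8. Their adjusted p reached 0.104, for mt-Tn (edgeR). On that scale mt-Ts1 was higher at day 21 (0.81 ± 0.33, adjusted p = 0.0354), and mt-Ts2 and mt-Tl2, which share reads, were lower (-0.81 ± 0.35 and -0.79 ± 0.35). At day 21 81.4% of all genes were called higher there and 2.13% lower. Of 12 fits that each left out 1 library, mt-Ts1 was called in 6, and mt-Ts2 and mt-Tl2 in 2 each, with adjusted p up to 0.121, 0.164 and 0.172 (edgeR). Without day 21 replicate 2 the log2 differences were 0.97 ± 0.25, -0.98 ± 0.30 and -0.96 ± 0.30, and the 3 genes were called.

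The nuclear genes that serve this genome were mostly lower at day 14, by less, where 28.8% of all genes were called lower. Of 8 genes for transcription and compaction of mitochondrial DNA 6 fell (median -0.75). Tfam, which packs and activates that DNA, had a log2 fold change of -0.98 ± 0.16 and Polrmt, its RNA polymerase, -0.59 ± 0.13 (adjusted p = 0.000511 and 0.00208, edgeR). Of 8 replication genes 5 fell (median -0.42), with Top1mt, a topoisomerase, at -1.41 ± 0.22 and Polg2, a polymerase subunit, at -0.95 ± 0.16. Of 10 RNA-processing genes 9 fell (median -0.78), with Fastk at -0.83 ± 0.09 and Tbrg4 at -0.74 ± 0.09. Of 6 genes for RNA stability and decay 5 fell (median -0.50). Lrpprc, which binds and stabilises mitochondrial messages, had -1.11 ± 0.27, its partner Slirp -0.58 ± 0.14 and the helicase Supv3l1 -0.87 ± 0.20. Of 22 mitochondrial ribosome genes 21 fell (median -0.81), such as Mrpl16 at -1.003 ± 0.12 and Mrps9 at -0.87 ± 0.12.

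Regulators of mitochondrial genes moved both ways at day 14. Of 7, 5 fell and 2 rose, where 31.2% of all genes were called higher. Ppargc1a, a coactivator that drives mitochondrial biogenesis, had a log2 fold change of -1.41 ± 0.15 (adjusted p = 4.23e-05, edgeR). Its relative Pprc1 rose by 1.07 ± 0.13 (adjusted p = 8.4e-05). At day 5 Tfam, Polrmt, Lrpprc and Ppargc1a stood at -0.15, 0.04, -0.04 and -0.25 and none passed the test. At day 21 Tfam stood at -0.59 ± 0.16, Lrpprc at -0.82 ± 0.27 and Ppargc1a at -0.60 ± 0.15, all called, and Polrmt at -0.32 ± 0.12 was not. Pprc1 was higher at day 21 (0.53 ± 0.13), where 24.3% of all genes were called higher and 18.5% lower. Without replicate 2 all of them were called, Tfam at -0.88 ± 0.08, Lrpprc at -1.36 ± 0.07, Ppargc1a at -0.83 ± 0.09, Polrmt at -0.49 ± 0.09 and Pprc1 at 0.64 ± 0.11.

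Nuclear partners of the same complexes were lower at day 14 as well, against the same 28.8% of all genes. All 10 listed subunits of complex I fell, with a median of -1.28 and examples Ndufb8 at -1.09 ± 0.15 and Ndufs7 at -1.15 ± 0.16. All 7 of complex III (median -1.37) and all 8 of complex IV (median -1.09) fell, among them Uqcrq at -1.37 ± 0.20, Uqcrfs1 at -1.54 ± 0.23, Cox6a1 at -1.20 ± 0.14 and Cox5a at -1.05 ± 0.15. All 9 rows listed for ATP synthase fell (median -1.21), with Atp5d at -1.12 ± 0.15. Complex II has no mitochondrially encoded subunit, and all 4 of its genes fell (median -1.40), with Sdhb at -1.68 ± 0.26 and Sdhd at -1.07 ± 0.16. Other mitochondrial proteins fell in 8 of 8 cases (median -0.96), such as Tomm20, an import receptor, at -0.88 ± 0.08 and Vdac1, an outer-membrane channel, at -1.11 ± 0.17. The protein genes of chromosome MT had a median of -2.06, and the difference between the genomes was not tested.

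**Figure D5:**
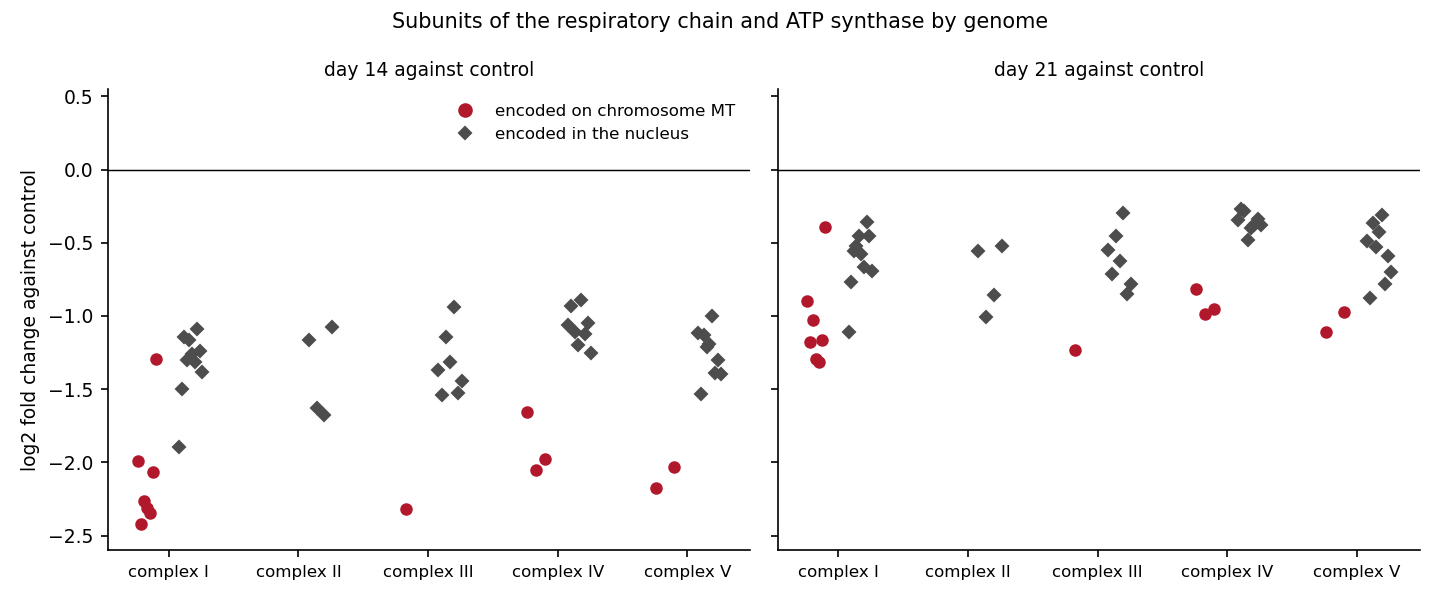
Log2 fold change against control at day 14 and day 21 of respiratory chain and ATP synthase subunits, by complex; circles are genes of chromosome MT and diamonds are the nuclear genes listed, 1 point per gene or row. At day 14 the nuclear subunits of complex IV have a median of -1.09, against -1.66 to -2.05 for mt-Co1 to mt-Co3, and at day 21 mt-Nd6 lies at -0.39 among the nuclear subunits of complex I.

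At day 21 fewer of the nuclear partners passed the test: 6 of 10 for complex I, 4 of 4 for complex II, 5 of 7 for complex III, 1 of 8 for complex IV and 6 of 9 for ATP synthase, all lower, against 18.5% of all genes. Their medians were -0.57, -0.70, -0.63, -0.36 and -0.53. Without replicate 2, 10 of 10, 4 of 4, 7 of 7, 7 of 8 and 9 of 9 were lower, in the same order, against 28.4% of all genes, with medians of -0.89, -1.11, -1.002, -0.61 and -0.82. Of the mitochondrial ribosome genes 10 of 22 were lower at day 21, and 20 of 22 without replicate 2, against the same shares.

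Markers of the cell types in the tissue also differed between groups, and not all in the same direction. The 10 proximal tubule markers summed to a mean of 37667 CPM in controls (range 35064 to 40964), 28580 CPM in day 5 kidneys (26836 to 30480), 3545 CPM in day 14 kidneys (3485 to 3592) and 10677 CPM in day 21 kidneys (2998 to 25152). All 10 fell at day 14 (median -2.83 on the log2 scale), where 28.8% of all genes were called lower. The 8 macrophage and monocyte markers summed to 71.7 CPM in the controls, then to 79.7, 1097 and 411 CPM on days 5, 14 and 21, and the 5 fibroblast and myofibroblast markers to 98.1, 262, 1088 and 581 CPM. T cell markers (5) summed to 1.17, 2.11, 9.19 and 4.71 CPM and erythroid markers (5) to 866, 698, 69.1 and 494 CPM. Single libraries set the last 2 erythroid means: the sums were 12.5, 13.8 and 181 CPM at day 14 and 726, 738 and 19.2 CPM at day 21. Loop of Henle and distal tubule markers (6) summed to 4191, 4155, 3147 and 3878 CPM in that order, collecting duct markers (6) to 309, 210, 501 and 705 CPM, and podocyte markers (6) to 228, 85.6, 170 and 149 CPM. No marker was at 0 in any group. In day 21 replicate 2, where mitochondrial protein genes held 20.3% of counts, the proximal tubule sum was 25152 CPM and the macrophage sum 209 CPM, against 3881 and 2998 CPM and 545 and 478 CPM in the other day 21 libraries. The part of these markers in the mitochondrial results was not tested.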

How the data were processed

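Whole-kidney RNA of 12 Pod-TRECK samples in 4 groups was measured by poly(A)-selected paired-end sequencing. The authors deposited raw counts per gene together with a gene model length in bases; fastp 0.20.0, featureCounts and the GRCm39 build are named in the submitters' processing notes. The aligner, annotation release, strand setting and treatment of reads with several matches were not given in the sources used here. Library totals ran from 31023852 to 46420299; tRNA genes with few counts were measured least precisely. The replicates are given as biological, and the sample titles name no batch.

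Levels were taken as CPM, counts scaled to the library total, and per kb of model length between genes. The 19821 genes kept by filterByExpr were tested in edgeR 4.0.16 (R 4.3.3, limma 3.58.1) with TMM factors and the quasi-likelihood test, 1 coefficient per group over all 12 libraries, with Benjamini-Hochberg adjustment over all genes and a threshold of 0.05. Standard errors were derived from each log2 fold change and its F statistic. A second fit used the summed counts of the 13 mitochondrial protein genes as library size without TMM. The scripts were tested on simulated data. DESeq2 1.42.0, limma-voom, other scalings, no filter, a replicate block and leaving out each library were alternatives. Subtracting overlapping rows, for mt-Atp6, mt-Nd4l, mt-Ts2 and mt-Ti with mt-Atp8 left out, was chosen after seeing the data. Sequences came from GENCODE M21 transcripts matched by gene identifier, compared in biopython 1.88. All protein and rRNA genes are described, the 3 tRNAs with the highest counts per kb in full, and from each nuclear list up to 2 genes with the smallest adjusted p at day 14, plus Tfam, Polrmt, Lrpprc and Ppargc1a. The members and lists were chosen with earlier results of these data known.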

Additional observations from a re-analysis of the deposited data

How the results depend on the processing

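On the library scale no called member changed sign. At day 14 the count was 37 of 37 under every fit but 3. Library totals alone gave 35, where 11.2% of all genes were called lower. The fit of only the 6 libraries compared gave 36 of the 36 members then tested, where 34% of all genes were called lower. Subtracting overlapping rows gave 35 of the 35 rows then tested, where 28.8% were. With only the 6 libraries compared, 38.4, 8.9 and 1.37% of all genes were called at day 5, at day 21 and at day 21 against day 14. Members called were 19 at day 5, 0 at day 21 and 0 at day 21 against day 14. At an unadjusted p under 0.05 (edgeR) these fits gave 7 members at day 21 and 15 at day 21 against day 14. Over all 12 libraries DESeq2 called 21 members at day 21, where it called 40.1% of all genes. Over all 12 libraries limma-voom called 12 members at day 21 against day 14, where it called 15% of all genes. The limma-voom fit gave 25 members at day 21 (43.2% of all genes), and DESeq2 gave 29 at day 21 against day 14 (21.5%). Leaving out 1 library gave 0 to 18 members at day 5, 37 to 37 at day 14, 2 to 36 at day 21, 32 to 36 at day 14 against day 5, and 2 to 30 at day 21 against day 14, while 7.73 to 32.3, 50.9 to 65.6, 24 to 61.6, 38.7 to 59.6 and 4.16 to 23.9% of all genes were called. At day 5 the count was 1 without day 21 replicate 1 and 18 without replicate 2. For day 21 against day 14 it was 8 without control 1, 2 or 3 or day 5 replicate 2 or 3, 3, 2 and 3 without day 14 replicates 1, 2 and 3, and 30, 21 and 26 without day 21 replicates 1, 2 and 3. Relative to the protein total, protein genes called ran 0 to 0, 2 to 8 and 2 to 8 at days 5, 14 and 21. At day 14 the count was 2 without any 1 control or day 14 library and 3 without day 5 replicate 2; at day 21 it was 3 without control 2, 8 without day 21 replicate 2 and 2 without replicate 3. With a replicate block the counts of members were 0, 37, 19, 34 and 9 in the order of the 5 comparisons, and 0, 5 and 4 relative to the protein total. The share of all genes called was not worked out for the replicate-block fits, so their counts cannot be set against it. The numbers did not pair the samples: of 18 correlations between same-numbered libraries, from -0.173 to 0.229, 6 exceeded 0.1 and 7 were highest with their own number.

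The share of counts depends on what is counted. For all members it was, in controls, 26.2% without the 10 most abundant other genes, 17.1% with overlapping rows subtracted, 18.7% also without the 7 copies and 30.7% with 6 copies counted as mitochondrial. The same settings gave 21.5, 14.0, 15.1 and 25.5% at day 5 and 10.04, 6.77, 7.01 and 12.5% at day 14, where genes with a symbol only gave 9.48%. For protein genes the first 3 settings gave 25.5, 16.5 and 18.0% in controls, 20.9, 13.4 and 14.5% at day 5 and 9.77, 6.52 and 6.76% at day 14, with 9.23% for genes with a symbol. For rRNA, overlaps subtracted without copies gave 0.572% at day 5, and leaving out the 10 genes 0.247% at day 14. For tRNA, leaving out the 10 genes gave 0.0523, 0.0579 and 0.0183% in controls, day 5 and day 14, overlaps subtracted without copies 0.0534, 0.0580 and 0.0177%, overlaps subtracted 0.0171% and genes with a symbol 0.0173% at day 14. Leaving out 1 library gave shares for all members of 22.6 to 23.2, 18.6 to 19.5, 9.10 to 9.34 and 11.8 to 16.4% (control, day 5, 14, 21), for protein 21.96 to 22.7, 18.1 to 18.9, 8.86 to 9.09 and 11.3 to 15.8%, for rRNA 0.433 to 0.564, 0.469 to 0.538, 0.216 to 0.232 and 0.428 to 0.654%, and for tRNA 0.0439 to 0.0484, 0.0480 to 0.0538, 0.0166 to 0.0169 and 0.0241 to 0.0424%. The cause was not tested.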
